A study of Mus musculus with 24 samples.

Results

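Control X-GFP–high cells sorted at day 7 of reprogramming were compared with the embryonic stem cells (ESCs) from which the whole system was derived, to ask what still separated the most advanced untreated cells from ESCs. The comparison used 4 of the 24 libraries of the series, 2 of control X-GFP–high cells and 2 of ESCs, and all 15427 of 37315 genes with a mean above 10 normalized counts in these 4 libraries. No expression value chose the libraries, which were taken by their labels. All cells derived from 1 line and carried the PaX system, in female hybrid ESCs of M. musculus (129S1/SvImJ) and M. castaneus (CAST/EiJ) origin. This line has GFP inserted at Hprt of the X chromosome from M. musculus (X mus), a truncated Tsix that makes X mus the chromosome inactivated on differentiation, a Nanog-promoter RFP reporter (P-RFP), and a doxycycline-inducible cassette of Myc, Klf4, Oct4 and Sox2 in the Sp3 locus.

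ESCs were grown on gelatin in serum and LIF, without feeders and without doxycycline. X-GFP–high cells came from neural precursor cells (NPCs) made from the same line, kept for 7 days on irradiated male mouse embryonic fibroblast feeders in serum, LIF, ascorbic acid and doxycycline. They were enriched on beads for SSEA1, a surface marker of pluripotent cells, and sorted as SSEA1-positive cells with high GFP, with no interferon γ (IFNγ). Culture medium, feeders, doxycycline, cassette and sorting therefore changed together with the group, and their shares in any difference below cannot be told apart. The 2 libraries of each group are labelled as replicates, and the methods of the study call its RNA replicates independent without saying what was kept separate. If they shared a culture, p-values measure only the spread between these samples, which may be technical. Control X-GFP–medium cells and X-GFP–high cells from the IFNγ-treated arm served to place single genes.

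Naive pluripotent cells of the mouse hold a network of transcription factors, around Oct4, Sox2, Nanog, Esrrb and the Klf factors, that LIF sustains through STAT3 and that ERK signaling opposes. In female cells that network goes with 2 active X chromosomes, whereas differentiation silences 1 of them under Xist RNA. Reprogramming runs this backward: somatic genes are shut, an epithelial state is gained, the pluripotency network is switched on and the inactive X is reactivated late. The X-GFP reporter marks cells in which the silenced X mus has begun to be read again.

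Totals recovered from the files were 27922209 and 26982896 reads on genes in the X-GFP–high libraries and 30155203 and 30359554 in the ESC libraries. Mitochondrial genes took 15.0% and 15.1% of the reads in X-GFP–high cells and 10.5% and 9.96% in ESCs. Most of this was the ribosomal RNA mt-Rnr2, with 13.49% and 13.47% in X-GFP–high cells and 9.44% and 9.02% in ESCs. The libraries had been depleted of ribosomal RNA, and the part of that step was not tested. All 7 pluripotency markers were read in both groups, with a summed level of 113606 and 118593 normalized counts in X-GFP–high cells, 156263 and 147246 in ESCs and 8192 in NPCs. Of 8 NPC markers, Nes, Slc1a3, Pax6 and Cd44 passed the filter and were higher in X-GFP–high cells, and 4, Olig2, Fabp7 and Sox9 among them, did not pass it. Of the 4 that passed, 2 did so only through the X-GFP–high libraries, so that their direction was fixed by the filter. The summed level of those 8 markers was 2802 and 2723 in X-GFP–high cells, 747 and 817 in ESCs and 44953 in NPCs. Of 8 fibroblast markers, Col3a1, Lum and Postn did not pass the filter. The sum of the 8 was 2614 and 2125 in X-GFP–high cells, mostly from Dcn, 311 and 352 in ESCs and 36652 in NPCs. Dcn itself had 1262 and 1444 normalized counts in the NPC libraries, so these markers are not particular to fibroblasts here. The 4 Y-linked genes, which only the male feeders hold, summed to 2.06 and 4.27 normalized counts in the X-GFP–high libraries and to 0 and 1.90 in the ESC libraries.

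Of the 15427 genes tested with limma, 5850 (37.9%) were higher and 5837 (37.8%) lower in X-GFP–high cells at an adjusted p under 0.1, so 75.8% of all genes were called and a call alone says little about a gene. At a log2 difference of at least 1 the sides were uneven, with 2560 genes (16.6%) higher and 1235 (8.01%) lower. The libraries of both groups did not overlap in 85.1% of genes, so a lack of overlap also says little about a gene. Counts of list members called higher or lower than in ESCs are to be read against the 37.9% and 37.8% of all genes. Of the 15427 genes, 752 had passed the filter only through the X-GFP–high libraries and 329 only through the ESC libraries. The direction of such genes was fixed by the filter, in the lists as well. The median log2 difference over all genes was 0.00. With values rescaled to the same total of nuclear genes, that median moved by 0.10, so differences of this size depend on the scaling. A difference throughout is on the log2(normalized count + 1) scale, X-GFP–high minus ESC, with its standard error and limma's Benjamini-Hochberg adjusted p from 2 libraries per group.

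**Figure D1:**
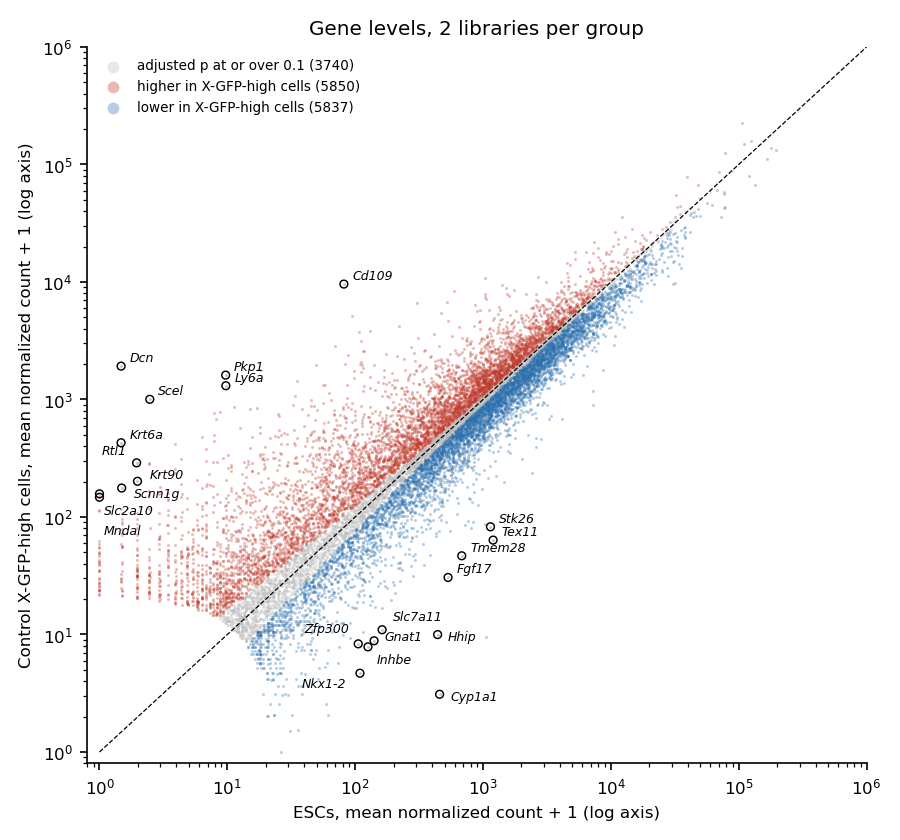
Mean normalized count + 1 of each gene in ESCs (horizontal, log axis) and in control X-GFP–high cells (vertical, log axis), 2 libraries per group, for 15427 genes. Red points are the 5850 genes higher and blue points the 5837 genes lower in X-GFP–high cells, the dashed line marks equal levels, and circles mark genes named among the 12 largest increases and 12 largest decreases, the increases spreading farther from the line.

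The largest increases included genes of epithelia and a gene of connective tissue, and 11 of the 12 had an ESC mean of at most 10 normalized counts. These genes and the largest decreases below were chosen among genes whose libraries did not overlap, so that their separation was fixed by the choice. Dcn had 2176 and 1668 normalized counts in the X-GFP–high libraries and 0 and 0.952 in the ESC libraries. Dcn (ENSMUSG00000019929, chromosome 10 from 97479609 to 97518143) encodes decorin, a proteoglycan of connective tissue, and had 1 read over both ESC libraries and 3673 over both X-GFP–high libraries, a ratio of 3985 with a counting interval of 715 to 157431. Scel stood at 1190 and 815 normalized counts in X-GFP–high cells and at 2.95 and 0 in ESCs, and this gene for sciellin, a protein of the cornified envelope of keratinocytes, had 3 reads over both ESC libraries and 1918 over both X-GFP–high libraries, a ratio of 694 with a counting interval of 237 to 3366. Krt6a gave 0 and 0.952 normalized counts in ESCs and 414 and 442 in X-GFP–high cells. All 3 genes stood far above the ESC level in X-GFP–high cells. Fitted differences of genes with so few ESC reads, 10.41 for Dcn, depend on the pseudocount and are no bound.

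Cd109 was read at 10636 and 8558 normalized counts in X-GFP–high cells against 70.8 and 90.4 in ESCs, a log2 difference of 6.88 ± 0.12 (adjusted p = 1.19e-13). Cd109 (ENSMUSG00000046186, chromosome 9 from 78615546 to 78716253), a surface protein anchored by GPI, was therefore abundant in X-GFP–high cells and present at a low level in ESCs. Pkp1 had 1755 and 1467 normalized counts in the X-GFP–high libraries and 8.84 and 8.56 in the ESC libraries, a log2 difference of 7.37 ± 0.17 (adjusted p = 9.01e-13). Pkp1 encodes plakophilin 1, a plaque protein of desmosomes. Ly6a stood at 1502 and 1114 normalized counts in X-GFP–high cells and at 10.8 and 6.66 in ESCs, a log2 difference of 7.09 ± 0.22 (adjusted p = 1.29e-11). Ly6a encodes the surface antigen Sca-1. Slc2a10, a glucose transporter gene with 176 and 137 normalized counts in X-GFP–high cells, and Mndal, an interferon-inducible gene with 153 and 139.8, had no read in either ESC library. Against a floor of 3 reads per library, Slc2a10 was at least 54.1-fold and Mndal at least 50.4-fold higher in X-GFP–high cells. Rtl1, an imprinted gene of retroviral origin, had 283 and 294 normalized counts against 0 and 1.90 in ESCs, with 2 reads over both ESC libraries and 549 over both X-GFP–high libraries, a ratio of 298 with a counting interval of 82.0 to 2465. Among the others of the 12 largest increases were Scnn1g, a subunit of the epithelial sodium channel, with 193 and 158 normalized counts against 0.983 and 0 in ESCs, and the keratin Krt90, with 197 and 204 normalized counts against 1.97 and 0 in ESCs. Of the 12, all but Cd109 had passed the filter on low values only through the X-GFP–high libraries, so that they had to differ.

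The largest decreases held genes of amino acid and xenobiotic metabolism, 4 X-linked genes and secreted signaling factors. Cyp1a1 gave 519 and 394 normalized counts in ESCs and 2.06 and 2.13 in X-GFP–high cells. This gene for a cytochrome P450 under the aryl hydrocarbon receptor (ENSMUSG00000032315, chromosome 9 from 57687928 to 57703824) had 4 reads over both X-GFP–high libraries and 942 over both ESC libraries, an ESC level 217 times the X-GFP–high level with a counting interval of 84.5 to 798. Hhip was read at 5.16 and 12.8 normalized counts in X-GFP–high cells against 448 and 433 in ESCs, a log2 difference of -5.58 ± 0.31 (adjusted p = 1.88e-09). Hhip (ENSMUSG00000064325, chromosome 8 from 79965851 to 80058006) encodes a membrane protein that binds and restrains Hedgehog ligands. Fgf17 had 17.5 and 41.6 normalized counts in the X-GFP–high libraries and 553 and 510.1 in the ESC libraries, a log2 difference of -4.24 ± 0.28 (adjusted p = 1.31e-08). For this FGF ligand, as for Hhip, the X-GFP–high libraries differed from each other, yet neither came near the ESC level.

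Tex11 stood at 52.6 and 72.6 normalized counts in X-GFP–high cells and at 1264 and 1134 in ESCs, a log2 difference of -4.25 ± 0.15 (adjusted p = 3.34e-11). Tex11 (ENSMUSG00000009670, chromosome X from 100838648 to 101059667), a meiosis gene, lies on the X chromosome, as do Tmem28, Stk26 and Zfp300. Stk26 gave 1118 and 1167 normalized counts in ESCs and 67.0 and 96.1 in X-GFP–high cells, a log2 difference of -3.81 ± 0.15 (adjusted p = 7.95e-11), and this gene encodes a kinase of the germinal center kinase family. Tmem28 had 38.2 and 53.4 normalized counts against 734 and 627 in ESCs, and Zfp300 8.25 and 6.40 normalized counts against 117 and 92.3 in ESCs. In all 4 X-linked genes the groups did not overlap, as the choice required. Others were Nkx1-2, a homeobox gene (3.09 and 4.27 normalized counts against 85.5 and 130.4 in ESCs), Inhbe, an inhibin subunit of the TGF-β family (5.16 and 8.54 normalized counts against 101 and 148 in ESCs), Gnat1, a G protein subunit of rod photoreceptors (9.28 and 6.40 normalized counts against 129.7 and 149 in ESCs), and Slc7a11, the cystine transporter. Of the 12 largest decreases, 8 had passed the filter only through the ESC libraries.

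Naive pluripotency factors were mostly somewhat below the ESC level. Of 30 listed, all 30 were tested, 19 were lower, 7 higher and 4 not called, and their median was -0.44. Nanog was read at 12268 and 11903 normalized counts in X-GFP–high cells against 26564 and 24098 in ESCs, a log2 difference of -1.07 ± 0.05 (adjusted p = 1.04e-09). Nr5a2 had 1066 and 1102 normalized counts in the X-GFP–high libraries and 2413 and 2231 in the ESC libraries, a log2 difference of -1.10 ± 0.07 (adjusted p = 4.40e-09), and this nuclear receptor binds the Oct4 gene. Nr0b1 stood at 1239 and 1519 normalized counts in X-GFP–high cells and at 3111 and 2613 in ESCs, a log2 difference of -1.05 ± 0.09 (adjusted p = 2.55e-07). For Nanog, Nr5a2 and the X-linked repressor Nr0b1 both X-GFP–high libraries lay below both ESC libraries. Gdf3, a TGF-β ligand of pluripotent cells, was the remaining factor that fell by at least 1 on the log2 scale (-1.02 ± 0.07, adjusted p = 9.94e-09). Zfp42, Esrrb and Dppa5a were lower by less, with differences of -0.69, -0.57 and -0.31. In the fit of all 24 libraries Zfp42 (adjusted p = 0.176, limma) and Dppa5a (adjusted p = 0.373) were not called, and Esrrb was (adjusted p = 0.0853).

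A small set of the same list exceeded the ESC level. Utf1 gave 647 and 556 normalized counts in ESCs and 1695 and 1742 in X-GFP–high cells, a log2 difference of 1.52 ± 0.08 (adjusted p = 1.64e-09). Tdgf1 was read at 18036 and 18019 normalized counts in X-GFP–high cells against 6289 and 6590.2 in ESCs, a log2 difference of 1.49 ± 0.05 (adjusted p = 2.01e-11). Pecam1 had 4319.7 and 4140.5 normalized counts in the X-GFP–high libraries and 1595 and 1899 in the ESC libraries, a log2 difference of 1.28 ± 0.07 (adjusted p = 3.16e-09). Utf1, a chromatin-associated factor of pluripotent cells, Tdgf1, the Nodal coreceptor Cripto, and Pecam1, an adhesion molecule of the inner cell mass, thus stood above the ESC libraries without overlap. Against X-GFP–medium cells, 29 of the 30 factors were higher in X-GFP–high cells at an adjusted p under 0.1, where 31.4% of the 15516 genes tested were called higher. In the fit of all 24 libraries 21 of the 30 factors were higher than in X-GFP–medium cells. That comparison shares the X-GFP–high libraries with the comparison to ESCs.

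The 4 genes of the cassette were read from the endogenous and the transgenic copy together, which cannot be told apart in these counts. Myc stood at 3627 and 3806 normalized counts in X-GFP–high cells and at 92.4 and 121 in ESCs, a log2 difference of 5.12 ± 0.11 (adjusted p = 5.99e-13). Klf4 gave 4602 and 4696 normalized counts in ESCs and 11527 and 10704 in X-GFP–high cells, a log2 difference of 1.26 ± 0.05 (adjusted p = 1.51e-10). Sox2 was read at 10874 and 12024 normalized counts in X-GFP–high cells against 8885 and 8433 in ESCs, a log2 difference of 0.40 ± 0.06 (adjusted p = 2.25e-05). Pou5f1, which encodes Oct4, was the exception, with 20705 and 20560.4 normalized counts against 24654 and 24376 in ESCs, a log2 difference of -0.25 ± 0.05 (adjusted p = 3.21e-04). Myc was thus the cassette gene farthest above ESCs, Klf4 and Sox2 were above without overlap, and Pou5f1 was slightly below. In a fit of all 24 libraries together the adjusted p of Pou5f1 was 0.105.

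Genes of the Nodal axis and of formative pluripotency, the state that follows the naive one in the embryo, moved in both directions. Of 19 tested, 10 were higher, 5 lower and 4 not called, with a median of 0.39, or 0.19 without the second X-GFP–high library. Otx2 had 3552 and 3711 normalized counts in the X-GFP–high libraries and 464 and 364 in the ESC libraries, a log2 difference of 3.14 ± 0.09 (adjusted p = 9.29e-12). Otx2 (ENSMUSG00000021848, chromosome 14 from 48657677 to 48673819), the factor that drives exit from the naive state, was above both ESC libraries in both X-GFP–high libraries. Foxd3 stood at 802 and 769.6 normalized counts in X-GFP–high cells and at 149 and 163 in ESCs, a log2 difference of 2.33 ± 0.11 (adjusted p = 3.74e-10). Eomes gave 90.4 and 83.7 normalized counts in ESCs and 264 and 264 in X-GFP–high cells, a log2 difference of 1.59 ± 0.15 (adjusted p = 3.71e-07). Foxd3, a forkhead factor, and Eomes, a T-box factor of the primitive streak and of trophoblast, were higher without overlap. Fgf5, a marker of formative cells, stayed rare, with 15.5 and 22.4 normalized counts against 2.95 and 0.952 in ESCs, and had 4 reads over both ESC libraries and 36 over both X-GFP–high libraries, a ratio of 9.76 with a counting interval of 3.50 to 37.8.

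Lefty1 was read at 1361 and 1899 normalized counts in X-GFP–high cells against 6297 and 5769.8 in ESCs, a log2 difference of -1.91 ± 0.11 (adjusted p = 3.05e-09). Lefty1 encodes an extracellular inhibitor of Nodal and was lower in both X-GFP–high libraries. Sall2 had 82.5 and 79.0 normalized counts in the X-GFP–high libraries and 298 and 356 in the ESC libraries, a log2 difference of -1.998 ± 0.15 (adjusted p = 4.69e-08). Sox4 (-1.20 ± 0.09, adjusted p = 5.86e-08) and Mixl1 (-1.74 ± 0.38, adjusted p = 9.06e-04), a homeobox gene of the primitive streak, were the other members lower by at least 1.

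Immediate early genes and feedback inhibitors of ERK signaling were mostly higher than in ESCs. ERK is the kinase at the end of the FGF and MAPK cascade, Fos, Egr and Jun family genes are transcribed within minutes of its activation, and Dusp and Spry proteins restrain it. Of 34 listed, 31 were tested, 27 were higher (87.1%, against 37.9% of all genes) and 3 lower, with a median of 1.92. Of the 31, 3 had passed the filter only through the X-GFP–high libraries. Fosb stood at 1565 and 1314 normalized counts in X-GFP–high cells and at 34.4 and 34.3 in ESCs, a log2 difference of 5.34 ± 0.13 (adjusted p = 1.99e-12). Fos gave 131 and 129 normalized counts in ESCs and 3953 and 3641 in X-GFP–high cells, a log2 difference of 4.86 ± 0.08 (adjusted p = 1.19e-13). Fosl2 was read at 643 and 530.5 normalized counts in X-GFP–high cells against 15.7 and 18.1 in ESCs, a log2 difference of 5.03 ± 0.18 (adjusted p = 4.84e-11). All 3 Fos family genes, which encode partners of Jun in the AP-1 factor, were far higher in both X-GFP–high libraries than in both ESC libraries. Egr1 had 1811 and 1663 normalized counts in the X-GFP–high libraries and 60.9 and 134 in the ESC libraries, a log2 difference of 4.25 ± 0.24 (adjusted p = 2.60e-09). Jun stood at 2522 and 2135 normalized counts in X-GFP–high cells and at 241 and 181 in ESCs, a log2 difference of 3.47 ± 0.12 (adjusted p = 3.45e-11).

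Among the inhibitors, Spry4 gave 81.6 and 113 normalized counts in ESCs and 1461 and 1570.2 in X-GFP–high cells, a log2 difference of 3.96 ± 0.14 (adjusted p = 3.05e-11). Dusp4 was read at 1877 and 1705 normalized counts in X-GFP–high cells against 155 and 181 in ESCs, a log2 difference of 3.41 ± 0.10 (adjusted p = 7.10e-12). Dusp6 had 1493 and 1459 normalized counts in the X-GFP–high libraries and 280.1 and 238 in the ESC libraries, a log2 difference of 2.51 ± 0.09 (adjusted p = 6.22e-11). These inhibitors stood above the ESC level in both X-GFP–high libraries. Dusp9, an X-linked phosphatase of ERK, went the other way, with 1101 and 1226 normalized counts against 2456 and 2307 in ESCs, a log2 difference of -1.03 ± 0.07 (adjusted p = 1.46e-08). Phlda1 (5.07 ± 0.26, adjusted p = 1.19e-09) and Egr2 were further members among the largest differences, Egr2 with 5 reads over both ESC libraries and 217 over both X-GFP–high libraries, a ratio of 47.1 with a counting interval of 19.9 to 146, and Myc belongs to this list as well as to the cassette. The mean of Fosb was 73.1 normalized counts in NPCs, 994 in control cells of day 2, 4022 at day 5 and 7094 in X-GFP–negative cells of day 7. Selection of cells on beads and by sorting differed along with the group, and its part in the levels of immediate early genes cannot be told apart.

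Genes of the LIF and STAT3 axis differed less. Their list also holds Klf4, whose counts include the cassette copy, and Junb, an immediate early gene, both of which were higher. Of 19 tested, 12 were higher and 5 lower, or 3 lower without the second X-GFP–high library, with a median of 0.41. Osmr stood at 69.1 and 69.4 normalized counts in X-GFP–high cells and at 0.983 and 0 in ESCs, with 1 read over both ESC libraries and 132 over both X-GFP–high libraries, a ratio of 143 with a counting interval of 25.3 to 5699, and this gene encodes the oncostatin M receptor subunit. Jak2 gave 302 and 307 normalized counts in ESCs and 1025 and 885 in X-GFP–high cells, a log2 difference of 1.64 ± 0.10 (adjusted p = 3.77e-09). Pim3 was read at 6134 and 6192 normalized counts in X-GFP–high cells against 2685 and 2595 in ESCs, a log2 difference of 1.22 ± 0.05 (adjusted p = 1.75e-10). Osmr, Jak2, which encodes a kinase of cytokine receptors, and the kinase gene Pim3 were above ESCs without overlap, as were Junb (1.94 ± 0.07, adjusted p = 6.25e-11) and Cish (1.71 ± 0.23, adjusted p = 1.31e-05), an inhibitor of STAT signaling. No gene of the axis was lower by 1 or more.

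Targets and ligands of BMP and TGF-β signaling were mostly higher, with a median of 1.23. Of 24 tested, 19 (79.2%, against 37.9% of all genes) were higher and 3 lower. Of the 24, 4 had passed the filter only through the X-GFP–high libraries, so that their direction was fixed by it. Id2, Ccn2, Tagln and Msx1 also stand in the lists of trophoblast, fibroblast or neural progenitor genes, so the lists are not independent of each other. Id2 had 624 and 437 normalized counts in the X-GFP–high libraries and 46.2 and 43.8 in the ESC libraries, a log2 difference of 3.51 ± 0.18 (adjusted p = 8.69e-10). Id3 stood at 564 and 525 normalized counts in X-GFP–high cells and at 76.7 and 65.7 in ESCs, a log2 difference of 2.92 ± 0.14 (adjusted p = 5.29e-10). Id2 and Id3 belong to the Id genes, immediate targets of BMP that block basic helix-loop-helix factors, and were above both ESC libraries here. Id4 was not called, with a log2 difference of 0.01 (adjusted p = 0.943, limma). Ccn2 gave 296 and 308 normalized counts in ESCs and 7419 and 5941 in X-GFP–high cells, a log2 difference of 4.45 ± 0.09 (adjusted p = 3.65e-13). Ccn2 encodes a matricellular protein induced by TGF-β and by YAP. The ligand genes Bmp4 (1.45 ± 0.12, adjusted p = 9.40e-08) and Bmp7 (1.65 ± 0.14, adjusted p = 1.52e-07) and the inhibitory Smad7 (1.71 ± 0.07, adjusted p = 7.15e-11) were higher, and Bmp2 had 5 reads over both ESC libraries and 109 over both X-GFP–high libraries, a ratio of 23.7 with a counting interval of 9.83 to 74.3.

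Epithelial genes formed the other group far above ESCs. Of 43 listed, 37 were tested, 33 were higher (89.2%) and 2 lower, with a median of 1.83, and 7 of the 37 had passed the filter only through the X-GFP–high libraries. Krt19 was read at 2064 and 1518 normalized counts in X-GFP–high cells against 17.7 and 17.1 in ESCs, a log2 difference of 6.59 ± 0.16 (adjusted p = 1.71e-12). Krt14 had 931 and 798 normalized counts in the X-GFP–high libraries and 11.8 and 8.56 in the ESC libraries, a log2 difference of 6.29 ± 0.20 (adjusted p = 1.34e-11). Krt8 stood at 7520.5 and 5869.7 normalized counts in X-GFP–high cells and at 572 and 471 in ESCs, a log2 difference of 3.68 ± 0.11 (adjusted p = 5.83e-12). These keratins, of simple epithelia in Krt8 and Krt19 and of basal stratified epithelia in Krt14, were high in both X-GFP–high libraries and low in both ESC libraries. Dsp gave 1852 and 1630.2 normalized counts in ESCs and 9605 and 7502 in X-GFP–high cells, a log2 difference of 2.29 ± 0.09 (adjusted p = 1.19e-10). Dsc2 was read at 2152 and 1810.3 normalized counts in X-GFP–high cells against 56.0 and 40.0 in ESCs, a log2 difference of 5.35 ± 0.15 (adjusted p = 5.42e-12). Desmoplakin and desmocollin 2, products of these genes, build desmosomes.

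The cornified envelope gene Sprr1a had 132 and 95.0 normalized counts in X-GFP–high cells and no read in ESCs, at least 39.2-fold higher against the floor of 3 reads per library. Ovol1 had 301 and 228 normalized counts in the X-GFP–high libraries and 10.8 and 8.56 in the ESC libraries, a log2 difference of 4.63 ± 0.24 (adjusted p = 1.17e-09). Esrp1 stood at 1869 and 1842 normalized counts in X-GFP–high cells and at 448 and 392.1 in ESCs, a log2 difference of 2.14 ± 0.08 (adjusted p = 6.93e-11). Ovol1, a zinc finger factor of epithelial differentiation, and Esrp1, an epithelial splicing regulator, were higher without overlap. Cdh2 gave 129.7 and 131 normalized counts in ESCs and 11.3 and 28.8 in X-GFP–high cells, a log2 difference of -2.78 ± 0.33 (adjusted p = 4.62e-06). Cdh2 encodes N-cadherin, the mesenchymal cadherin, and was the listed gene farthest below ESCs. Snai1, a repressor of the epithelial state, was higher at a low level, with 68.1 and 56.6 normalized counts against 19.7 and 16.2 in ESCs (1.74 ± 0.27, adjusted p = 4.78e-05).

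Fibroblast markers were mixed. Of 39 listed, 28 were tested, 20 were higher and 4 lower, with a median of 1.55, and 7 had passed only through the X-GFP–high libraries. The summed level of the list was 59341 and 52484 in X-GFP–high cells, 20821 and 21167 in ESCs and 117129 in NPCs. Ccn1 was read at 5875 and 4325 normalized counts in X-GFP–high cells against 105 and 82.8 in ESCs, a log2 difference of 5.74 ± 0.13 (adjusted p = 1.12e-12). Col5a2 had 926 and 716 normalized counts in the X-GFP–high libraries and 7.86 and 19.98 in the ESC libraries, a log2 difference of 5.90 ± 0.30 (adjusted p = 1.04e-09). S100a6 stood at 4498 and 3786 normalized counts in X-GFP–high cells and at 696 and 604 in ESCs, a log2 difference of 2.67 ± 0.09 (adjusted p = 1.91e-11). Ccn1, a matricellular protein gene, Col5a2, a fibrillar collagen gene, and S100a6, a calcium-binding protein gene, were above both ESC libraries, as Dcn was. Vim gave 2532 and 2649 normalized counts in ESCs and 439 and 492 in X-GFP–high cells, a log2 difference of -2.48 ± 0.08 (adjusted p = 1.05e-11). Vimentin, the intermediate filament of mesenchymal cells, was therefore lower in X-GFP–high cells, and so was the surface marker Thy1 (-1.08 ± 0.15, adjusted p = 2.02e-05). Beside these levels, Col3a1, Lum and Postn lay under the filter, and the Y-linked sum was at most 4.27 normalized counts. Fewer cells of a type and less RNA per cell cannot be told apart in such bulk samples.

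Neural progenitor markers, the genes of the starting cells, also differed both ways. Of 35 listed, 24 were tested, 17 were higher and 4 lower, with a median of 0.99. Of the 24, 5, Cd44 among them, had passed the filter only through the X-GFP–high libraries and 1 only through the ESC libraries. The direction of these genes was fixed by the filter. Cd44 was read at 703 and 665 normalized counts in X-GFP–high cells against 4.91 and 9.52 in ESCs, a log2 difference of 6.44 ± 0.25 (adjusted p = 8.74e-11). Egfr had 513 and 454 normalized counts in the X-GFP–high libraries and 72.7 and 82.8 in the ESC libraries, a log2 difference of 2.62 ± 0.14 (adjusted p = 1.66e-09). Nes stood at 1552 and 1493 normalized counts in X-GFP–high cells and at 558 and 619.5 in ESCs, a log2 difference of 1.37 ± 0.08 (adjusted p = 2.62e-09). Cd44, an adhesion receptor, the EGF receptor gene Egfr, and Nes, the intermediate filament nestin, were above ESCs without overlap, but 11 listed genes, Olig2, Fabp7 and Sox9 among them, did not pass the filter. Tubb3 gave 7671 and 6901 normalized counts in ESCs and 919.8 and 884 in X-GFP–high cells, a log2 difference of -3.01 ± 0.06 (adjusted p = 4.97e-13). The neuronal tubulin gene Tubb3 was thus higher in ESCs. The summed level of the list was 9679 and 9415 in X-GFP–high cells, 14271 and 13785 in ESCs and 145998 in NPCs, so that most genes of the list were higher than in ESCs while its sum, led by Tubb3, was lower.

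Genes of the extraembryonic lineages were also mostly higher. Among primitive endoderm genes, 14 of 19 tested were higher and 4 lower, with a median of 0.92. Of the 19, 3, Gata6 among them, had passed the filter only through the X-GFP–high libraries and 1 only through the ESC libraries. The direction of these genes was fixed by the filter. Gata6 was read at 76.3 and 75.8 normalized counts in X-GFP–high cells against 6.88 and 9.52 in ESCs, a log2 difference of 3.08 ± 0.29 (adjusted p = 4.55e-07). Gata6 and Gata4 (1.64 ± 0.16, adjusted p = 5.49e-07), the factors that specify primitive endoderm, were higher without overlap, whereas Sox7 (-1.96 ± 0.39, adjusted p = 4.78e-04) and the endocytic receptor gene Lrp2 (-1.44 ± 0.11, adjusted p = 5.67e-08) were lower. Among trophoblast genes, 10 of 16 tested were higher and 3 lower, with a median of 1.51, and 3 had passed only through the X-GFP–high libraries. Plet1 had 1006 and 867 normalized counts in the X-GFP–high libraries and 89.4 and 99.0 in the ESC libraries, a log2 difference of 3.30 ± 0.12 (adjusted p = 5.29e-11). Tead4 stood at 2092 and 1826 normalized counts in X-GFP–high cells and at 565 and 579.6 in ESCs, a log2 difference of 1.77 ± 0.08 (adjusted p = 2.74e-10). Elf5, a factor of trophoblast stem cells, had 2 reads over both ESC libraries and 102 over both X-GFP–high libraries, a ratio of 55.3 with a counting interval of 14.9 to 463, and Cdx2, Gata3 and Hand1 did not pass the filter. Fgfr2, the FGF receptor of trophoblast stem cells, was lower (-1.47 ± 0.13, adjusted p = 1.96e-07).

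**Figure D2:**
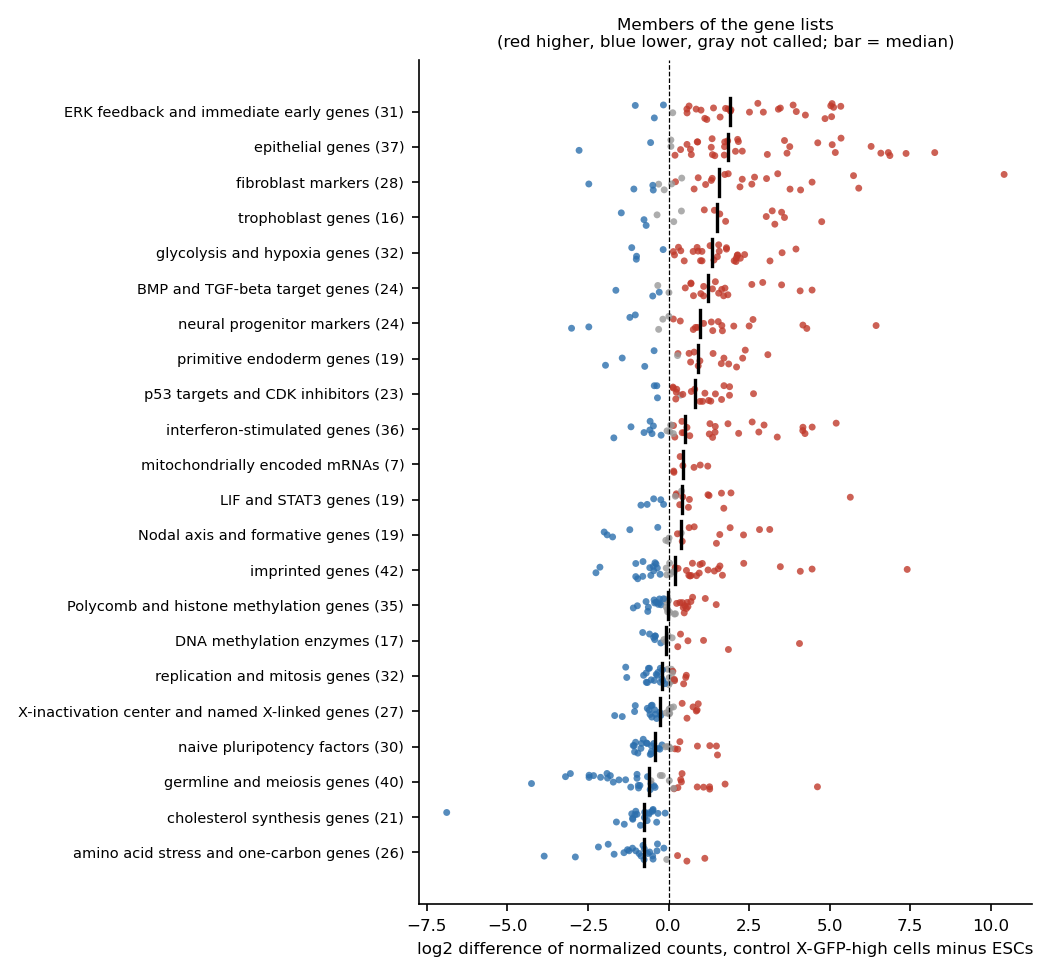
Log2 difference (X-GFP–high minus ESC) of each tested member of 22 gene lists, with the number tested in parentheses. Points are genes, red if higher, blue if lower and gray if not called, and black bars are medians, which run from 1.92 for the ERK list, next to 1.83 for epithelial genes, to -0.78 for amino acid stress and one-carbon genes.

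Genes of glycolysis and of the response to low oxygen were mostly above the ESC level. Glycolysis turns glucose into pyruvate and lactate, and the hypoxia-inducible factors (HIF) raise many of its genes together with Egln3, Bnip3 and Ndrg1. Of 32 genes tested, 28 (87.5%) were higher and 4 lower, with a median of 1.35. Egln3 gave 126 and 95.2 normalized counts in ESCs and 1593 and 1835 in X-GFP–high cells, a log2 difference of 3.95 ± 0.13 (adjusted p = 1.91e-11). Bnip3 was read at 5169 and 5622 normalized counts in X-GFP–high cells against 528 and 415 in ESCs, a log2 difference of 3.52 ± 0.09 (adjusted p = 3.32e-12). Ndrg1 had 5058 and 4309 normalized counts in the X-GFP–high libraries and 589 and 470.1 in the ESC libraries, a log2 difference of 3.15 ± 0.10 (adjusted p = 1.29e-11). Egln3, a prolyl hydroxylase of HIF, Bnip3, a mitophagy receptor, and Ndrg1, a stress-responsive gene, were in both X-GFP–high libraries far above both ESC libraries. The core letters of the HIF site, ACGTG, stood on either strand in the promoters, taken as 250 bases before to 50 after the start, of 18 of 30 genes of the list with a RefSeq promoter. The same letters stood in 19.6% of all 32817 promoters and in 27.1% of the 4264 promoters of protein-coding genes called lower. They also stood in 23 of 36 promoters (63.9%) of the germ line and meiosis genes described below, which were mostly lower in X-GFP–high cells. The letters were thus not particular to this list or to genes that were higher. The 250 bases before the start are shown for 3 of these genes, from RefSeq on GRCm38.p6 and read along the gene's strand, with the motif on either strand in capitals. A match describes letters in the window and not a bound site.
Egln3, chr12:54203875-54204124, minus strand: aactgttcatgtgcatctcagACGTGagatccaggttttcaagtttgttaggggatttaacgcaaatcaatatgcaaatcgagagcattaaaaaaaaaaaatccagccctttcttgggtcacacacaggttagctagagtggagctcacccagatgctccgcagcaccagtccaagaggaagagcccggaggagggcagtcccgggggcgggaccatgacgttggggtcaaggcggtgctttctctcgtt
Bnip3, chr7:138909507-138909756, minus strand: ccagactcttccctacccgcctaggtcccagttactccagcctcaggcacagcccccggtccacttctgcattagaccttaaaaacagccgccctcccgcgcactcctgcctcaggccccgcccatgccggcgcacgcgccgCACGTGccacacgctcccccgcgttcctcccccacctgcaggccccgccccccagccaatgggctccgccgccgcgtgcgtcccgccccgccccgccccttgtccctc
Slc16a3, chr11:120948817-120949066, plus strand: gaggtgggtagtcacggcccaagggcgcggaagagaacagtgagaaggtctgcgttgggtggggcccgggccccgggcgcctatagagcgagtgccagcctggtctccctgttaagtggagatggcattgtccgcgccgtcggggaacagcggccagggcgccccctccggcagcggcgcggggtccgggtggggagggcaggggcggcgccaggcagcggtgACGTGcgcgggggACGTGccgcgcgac

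In Egln3 the motif began 229 bases before the start, in Bnip3 108 bases, as CACGTG, in which ACGTG lies on both strands, and in Slc16a3 27 and 14 bases. The Slc16a3 start in RefSeq lay 587 bases from the start of the GENCODE gene. Slc16a3 stood at 6079 and 6241 normalized counts in X-GFP–high cells and at 1471 and 1175 in ESCs, a log2 difference of 2.23 ± 0.08 (adjusted p = 5.65e-11). Slc2a1 gave 5433 and 5012 normalized counts in ESCs and 17990.2 and 18269.7 in X-GFP–high cells, a log2 difference of 1.80 ± 0.05 (adjusted p = 6.62e-12). Pdk1 was read at 10536 and 11438 normalized counts in X-GFP–high cells against 2813 and 2543 in ESCs, a log2 difference of 2.04 ± 0.06 (adjusted p = 9.10e-12). The lactate exporter Slc16a3, the glucose transporter Slc2a1 and Pdk1, the kinase that closes pyruvate dehydrogenase, were all above ESCs without overlap. Hk1 had 5909 and 5599 normalized counts in the X-GFP–high libraries and 1129 and 1109.6 in the ESC libraries, a log2 difference of 2.36 ± 0.06 (adjusted p = 1.64e-12), and this gene encodes a hexokinase. Slc16a1 stood at 4828 and 5214 normalized counts in X-GFP–high cells and at 11209.6 and 10957 in ESCs, a log2 difference of -1.14 ± 0.05 (adjusted p = 3.85e-10). The lactate carrier Slc16a1 was thus lower in X-GFP–high cells, as was Pdk3, an X-linked kinase of the same family as Pdk1 (adjusted p = 2.38e-08).

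Cholesterol synthesis ran the other way in every gene listed. All 21 genes, enzymes of the pathway and genes that follow the same sterol control, were tested, and all 21 were lower at an adjusted p under 0.1, 8 of them by at least 1, with a median of -0.75. Over all genes, 37.8% were lower. Of the 21, 1 had passed the filter only through the ESC libraries. Msmo1 differed by only -0.11, a size that depends on the scaling. Rescaled to the same nuclear total, the median of the list was -0.65. Nsdhl gave 3008 and 2871 normalized counts in ESCs and 887 and 1031 in X-GFP–high cells, a log2 difference of -1.62 ± 0.07 (adjusted p = 3.85e-10). Idi1 was read at 231 and 255 normalized counts in X-GFP–high cells against 639.7 and 622 in ESCs, a log2 difference of -1.37 ± 0.10 (adjusted p = 4.27e-08). Mvd had 1051 and 1112 normalized counts in the X-GFP–high libraries and 2408 and 2265 in the ESC libraries, a log2 difference of -1.11 ± 0.07 (adjusted p = 3.85e-09). Nsdhl, an X-linked sterol dehydrogenase, Idi1, the isomerase of isopentenyl diphosphate, and Mvd, the decarboxylase of mevalonate diphosphate, were lower in both X-GFP–high libraries than in both ESC libraries. Insig1 stood at 3228 and 3241 normalized counts in X-GFP–high cells and at 7468 and 6577 in ESCs, a log2 difference of -1.12 ± 0.06 (adjusted p = 1.94e-09), and this gene encodes the sterol-regulated retention protein of SCAP. Serum content of the medium, 15% in reprogramming and 10% in ESC culture, differed along with the group.

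Genes of the amino acid response and of serine and one-carbon metabolism were lower too. Atf4 is the factor of that response, which acts through elements with the letters TGATGNAA. Of 26 tested, 22 (84.6%) were lower and 3 higher, with a median of -0.78. Slc7a11 gave 129 and 194 normalized counts in ESCs and 9.28 and 10.7 in X-GFP–high cells, a log2 difference of -3.86 ± 0.27 (adjusted p = 1.96e-08). Chac1 was read at 178 and 213 normalized counts in X-GFP–high cells against 1319.8 and 1607 in ESCs, a log2 difference of -2.89 ± 0.11 (adjusted p = 9.33e-11). Trib3 had 449 and 547 normalized counts in the X-GFP–high libraries and 2012 and 2500 in the ESC libraries, a log2 difference of -2.18 ± 0.11 (adjusted p = 6.80e-10). Slc7a11, the cystine importer, Chac1, an enzyme that degrades glutathione, and Trib3, a pseudokinase that restrains ATF4, were lower in X-GFP–high cells without overlap. TGATGNAA stood on either strand in 5 of the 22 promoters with a RefSeq entry (22.7%), against 3.97% of all promoters and 2.44% of those of genes called lower. These were Asns, Atf3, Chac1, Slc7a11 and Trib3, and the matches of the 2 genes of the list farthest below ESCs are shown in capitals, 66 and 47 bases before the start in Slc7a11 and 193 in Chac1.
Slc7a11, chr3:50443614-50443863, minus strand: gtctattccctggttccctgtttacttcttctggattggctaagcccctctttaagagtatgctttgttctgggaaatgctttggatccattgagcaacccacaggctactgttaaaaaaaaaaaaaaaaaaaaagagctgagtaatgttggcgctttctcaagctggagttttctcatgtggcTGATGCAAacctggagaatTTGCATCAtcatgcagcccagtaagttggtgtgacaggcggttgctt
Chac1, chr2:119350992-119351241, plus strand: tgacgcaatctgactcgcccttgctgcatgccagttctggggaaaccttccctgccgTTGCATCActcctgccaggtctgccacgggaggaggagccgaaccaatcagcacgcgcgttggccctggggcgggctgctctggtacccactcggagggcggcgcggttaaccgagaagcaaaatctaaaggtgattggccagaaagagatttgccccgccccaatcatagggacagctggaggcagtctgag

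Psph stood at 723 and 781 normalized counts in X-GFP–high cells and at 2440 and 2412 in ESCs, a log2 difference of -1.69 ± 0.07 (adjusted p = 1.01e-10). Mthfd2 gave 3784 and 4186 normalized counts in ESCs and 1617 and 1787 in X-GFP–high cells, a log2 difference of -1.23 ± 0.07 (adjusted p = 2.01e-09). Psat1 was read at 7318 and 7571 normalized counts in X-GFP–high cells against 16458 and 15906 in ESCs, a log2 difference of -1.12 ± 0.05 (adjusted p = 2.22e-10). Psph and Psat1 of serine synthesis and Mthfd2 of the mitochondrial folate pathway followed the same direction, and the amino acid transporter Slc7a5 did too (-1.27 ± 0.06, adjusted p = 6.02e-10). Atf3, whose promoter held the motif and which also belongs to the immediate early genes, was higher, with 881 and 692 normalized counts against 297 and 430.1 in ESCs, a log2 difference of 1.12 ± 0.15 (adjusted p = 1.43e-05).

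Genes of the germ line, read in ESCs although their main role is in gametes, were mostly below the ESC level. Many of them are held down by DNA methylation in somatic cells and by a Polycomb complex, PRC1.6, whose MGA and MAX subunits bind the E-box CACGTG. Of 46 listed, 40 were tested, 24 were lower, 11 higher and 5 not called, with a median of -0.61, and 14 were lower by at least 1. In a fit of all 24 libraries 6 were higher. Syce1 had 78.4 and 101 normalized counts in the X-GFP–high libraries and 794 and 861 in the ESC libraries, a log2 difference of -3.20 ± 0.14 (adjusted p = 1.93e-10). Fkbp6 stood at 86.6 and 96.1 normalized counts in X-GFP–high cells and at 759.6 and 763 in ESCs, a log2 difference of -3.05 ± 0.12 (adjusted p = 8.88e-11). Hormad1 gave 1567 and 1545 normalized counts in ESCs and 391 and 331 in X-GFP–high cells, a log2 difference of -2.11 ± 0.09 (adjusted p = 1.87e-10). Syce1 and Hormad1, proteins of the meiotic chromosome axis and synapsis, and Fkbp6, a cochaperone of the piRNA pathway, were lower in X-GFP–high cells without overlap. CACGTG stood in 15 of 36 promoters of the list with a RefSeq entry (41.7%) in 7.15% of all promoters and in 11.8% of the promoters of genes called lower, with 12 of the 15 genes lower and 3 higher. The 3 members with the motif that lay farthest below ESCs are shown, the motif in capitals.
Fkbp6, chr5:135350045-135350294, minus strand: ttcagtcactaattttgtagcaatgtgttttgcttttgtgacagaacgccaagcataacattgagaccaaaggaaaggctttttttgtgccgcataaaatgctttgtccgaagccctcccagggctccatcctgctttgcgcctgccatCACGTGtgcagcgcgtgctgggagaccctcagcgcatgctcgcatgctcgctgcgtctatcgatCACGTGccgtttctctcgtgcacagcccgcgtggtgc
Slc25a31, chr3:40708621-40708870, plus strand: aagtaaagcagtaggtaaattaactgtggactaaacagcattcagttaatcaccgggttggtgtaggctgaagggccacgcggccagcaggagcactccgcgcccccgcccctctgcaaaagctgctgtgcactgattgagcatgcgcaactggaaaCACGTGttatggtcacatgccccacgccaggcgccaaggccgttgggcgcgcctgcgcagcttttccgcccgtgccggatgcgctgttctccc
Taf7l, chrX:134476491-134476740, minus strand: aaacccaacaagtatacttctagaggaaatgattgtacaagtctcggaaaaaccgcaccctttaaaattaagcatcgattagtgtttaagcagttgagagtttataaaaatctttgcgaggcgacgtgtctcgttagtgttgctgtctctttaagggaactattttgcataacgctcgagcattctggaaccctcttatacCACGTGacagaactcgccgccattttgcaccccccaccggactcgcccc

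The motif began 101 and 37 bases before the start in Fkbp6, 93 in Slc25a31 and 49 in Taf7l. Slc25a31 was read at 18.6 and 17.1 normalized counts in X-GFP–high cells against 105 and 101 in ESCs, a log2 difference of -2.47 ± 0.24 (adjusted p = 4.87e-07). Taf7l had 42.3 and 37.4 normalized counts in the X-GFP–high libraries and 236 and 213 in the ESC libraries, a log2 difference of -2.47 ± 0.18 (adjusted p = 3.53e-08). Ddx4 stood at 80.4 and 105 normalized counts in X-GFP–high cells and at 489 and 441 in ESCs, a log2 difference of -2.33 ± 0.15 (adjusted p = 9.87e-09). Slc25a31, an ADP/ATP carrier of sperm, Taf7l, an X-linked subunit of the transcription factor TFIID, and Ddx4, the germ cell helicase Vasa, were lower in both X-GFP–high libraries. Dpep3, a testis dipeptidase gene, was the member farthest above, with 199 and 213 normalized counts against 13.8 and 3.81 in ESCs, a log2 difference of 4.62 ± 0.40 (adjusted p = 1.59e-07). Mei1 (1.75 ± 0.38, adjusted p = 9.27e-04), Brdt (1.28 ± 0.29, adjusted p = 0.00128) and Stra8 (1.27 ± 0.26, adjusted p = 5.99e-04) were higher as well. Against X-GFP–medium cells 34 of 39 genes tested were higher in X-GFP–high cells, or 31 in the fit of all 24 libraries. In IFNγ-treated against control X-GFP–high cells 29 of 41 were higher, where 18.1% of the 15598 genes tested were called higher, but 22 of 42 without the first control X-GFP–high library and 8 of 41 in the fit of all 24 libraries.

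Pcgf6, the subunit that sets PRC1.6 apart from other Polycomb complexes, was itself lower, with 1572 and 1719.6 normalized counts against 3605 and 3417 in ESCs, a log2 difference of -1.09 ± 0.06 (adjusted p = 3.00e-09). The 35 Polycomb and histone methylation genes were otherwise balanced, 13 higher, 13 lower and 9 not called, with a median of -0.03, and Ezh1, the methyltransferase of noncycling cells (1.48 ± 0.08, adjusted p = 2.40e-09), and Kdm6b, a demethylase of H3K27 (1.14 ± 0.10, adjusted p = 2.66e-07), were the members higher by at least 1. Among 17 DNA methylation genes 6 were higher and 7 lower, with a median of -0.09. Dnmt3l gave 3421 and 3061 normalized counts in ESCs and 6615 and 7128 in X-GFP–high cells, a log2 difference of 1.09 ± 0.06 (adjusted p = 3.00e-09). Gadd45g was read at 345 and 278 normalized counts in X-GFP–high cells against 14.7 and 20.9 in ESCs, a log2 difference of 4.06 ± 0.22 (adjusted p = 1.88e-09). Dnmt3l, the cofactor of de novo methylation, and the stress-induced genes Gadd45g and Gadd45b (1.86 ± 0.11, adjusted p = 2.66e-09) were above ESCs without overlap. Few genes of the two-cell-like state were read: 5 of 20 listed were tested, 2 being higher and 2 lower, or 1 lower without the second ESC library.

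Imprinted genes, read from a single parental copy, held some of the widest differences. Of 52 listed, 42 were tested, with a median of 0.19. Of these, 21 (50.0%, against 37.9% of all genes) were higher and 15 (35.7%, against 37.8%) lower. Igf2 had 2746 and 2378 normalized counts in the X-GFP–high libraries and 108 and 124 in the ESC libraries, a log2 difference of 4.45 ± 0.10 (adjusted p = 1.01e-12). H19 stood at 2171 and 1732 normalized counts in X-GFP–high cells and at 110.1 and 116 in ESCs, a log2 difference of 4.09 ± 0.11 (adjusted p = 4.23e-12). Sgce gave 53.1 and 58.1 normalized counts in ESCs and 701 and 556 in X-GFP–high cells, a log2 difference of 3.47 ± 0.15 (adjusted p = 2.24e-10). The growth factor Igf2 (ENSMUSG00000048583, chromosome 7 from 142650766 to 142666816), its neighbor H19 (ENSMUSG00000000031, chromosome 7 from 142575529 to 142578143), a noncoding RNA read from the other parental copy, and Sgce, which encodes a sarcoglycan, were all far above ESCs in both libraries. Meg3 was read at 2201 and 2319 normalized counts in X-GFP–high cells against 695 and 722 in ESCs, a log2 difference of 1.67 ± 0.07 (adjusted p = 1.12e-10). Meg3 and Rtl1 share an imprinted domain of chromosome 12, and Rtl1 overlaps an antisense transcript of that domain. The kit kept the strand, but whether the counting used it is not given in the sources used here, so reads of both transcripts may not be fully kept apart. Mest had 649 and 789.9 normalized counts in the X-GFP–high libraries and 3456 and 3380.2 in the ESC libraries, a log2 difference of -2.25 ± 0.08 (adjusted p = 4.95e-11). Grb10 stood at 177 and 199.6 normalized counts in X-GFP–high cells and at 839 and 816 in ESCs, a log2 difference of -2.13 ± 0.10 (adjusted p = 6.59e-10). Mest, a hydrolase-like protein gene, and Grb10, an adaptor that restrains growth, were the members farthest below. These counts do not give the parental copy.

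Stress and cell cycle genes differed moderately. Among 23 targets of p53 and CDK inhibitors, 19 were higher and 3 lower, with a median of 0.81. Plk2 gave 462 and 444 normalized counts in ESCs and 3248 and 2452 in X-GFP–high cells, a log2 difference of 2.64 ± 0.10 (adjusted p = 8.94e-11). Cdkn1a was read at 3561 and 3146 normalized counts in X-GFP–high cells against 1297 and 1403 in ESCs, a log2 difference of 1.31 ± 0.07 (adjusted p = 1.57e-09). Pmaip1 had 802 and 779 normalized counts in the X-GFP–high libraries and 189.7 and 238 in the ESC libraries, a log2 difference of 1.89 ± 0.12 (adjusted p = 5.70e-09). The kinase gene Plk2, the CDK inhibitor p21 (Cdkn1a) and the proapoptotic Noxa (Pmaip1) were higher in both X-GFP–high libraries. Among 32 replication and mitosis genes, 19 were lower and 6 higher, or 12 higher once rescaled to the same nuclear total, with a median of -0.20, and only Ccne1 and Tyms passed 1. Ccne1 stood at 1906 and 2113 normalized counts in X-GFP–high cells and at 4942 and 5156 in ESCs, a log2 difference of -1.33 ± 0.06 (adjusted p = 3.84e-10). Tyms gave 2842 and 2759.8 normalized counts in ESCs and 1048 and 1237 in X-GFP–high cells, a log2 difference of -1.30 ± 0.08 (adjusted p = 3.52e-09). Cyclin E1 and thymidylate synthase, of the entry into and the course of S phase, were lower without overlap.

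Interferon-stimulated genes were raised in part in these cells, which had received no IFNγ. Of 45 listed, 36 were tested, 23 were higher and 8 lower, with a median of 0.52, and 8 had passed only through the X-GFP–high libraries. Gbp2 was read at 107 and 107 normalized counts in X-GFP–high cells against 1.97 and 1.90 in ESCs, with 4 reads over both ESC libraries and 204 over both X-GFP–high libraries, a ratio of 55.3 with a counting interval of 21.3 to 205. B2m had 1737 and 1441 normalized counts in the X-GFP–high libraries and 262 and 259.8 in the ESC libraries, a log2 difference of 2.59 ± 0.10 (adjusted p = 5.76e-11). Tap1 stood at 158 and 159 normalized counts in X-GFP–high cells and at 36.4 and 32.4 in ESCs, a log2 difference of 2.17 ± 0.20 (adjusted p = 2.66e-07). The guanylate-binding protein gene Gbp2 and the antigen presentation genes B2m and Tap1 were above ESCs without overlap. Ifit2 gave 220.1 and 221 normalized counts in ESCs and 58.8 and 76.9 in X-GFP–high cells, a log2 difference of -1.70 ± 0.18 (adjusted p = 1.08e-06). Ifitm3 was read at 1349.8 and 1725 normalized counts in X-GFP–high cells against 3803 and 3086 in ESCs, a log2 difference of -1.17 ± 0.11 (adjusted p = 2.89e-07). Ifit2 and Ifitm3, antiviral effectors, were lower in X-GFP–high cells, and Isg15, Ifit1, Mx1 and Rsad2 did not pass the filter. All 7 mitochondrially encoded mRNAs tested were higher, by 0.16 to 1.22, beside the higher mitochondrial share of these libraries. Most of that share was the ribosomal RNA mt-Rnr2 and not mRNA.

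The 12 largest increases were placed among the other populations. In X-GFP–medium cells of the same day, Dcn had 5019.6 and 4472 and Krt6a 1096 and 1297 normalized counts, both above the X-GFP–high libraries. In the test against X-GFP–medium cells all 12 were lower in X-GFP–high cells, where 64.1% of genes were called and 32.7% were called lower. In IFNγ-treated X-GFP–high cells, Dcn had 41.1 and 119 and Krt6a 88.0 and 156. All 12 were lower there than in control X-GFP–high cells, also without either control library, where 20.4% of 15598 genes were called lower. Genes called in that comparison numbered 2830 higher and 3175 lower, and 967 and 1774 without the first control X-GFP–high library, or 1827 and 2358 without the second. The 2 comparisons share the control X-GFP–high libraries with the comparison to ESCs, and the 12 genes were chosen for being high in them, which by itself favors lower values elsewhere, so these counts are a description. Of 40 epithelial genes tested, 35 were below the X-GFP–medium level in control X-GFP–high cells, and 31 of 37 were lower in the IFNγ-treated than in the control arm. Of the ERK genes, 28 of 33 and 18 of 32 were lower in the same order. In the fit of all 24 libraries these counts were 25 and 31 for the epithelial genes and 24 and 15 for the ERK genes. Glycolysis and hypoxia genes were split against X-GFP–medium cells, with 15 of 32 lower and 11 higher in X-GFP–high cells (10 and 5 in the fit of all 24 libraries). With IFNγ 16 of 32 were lower and 2 higher, but 9 and 0 in that fit.

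**Figure D3:**
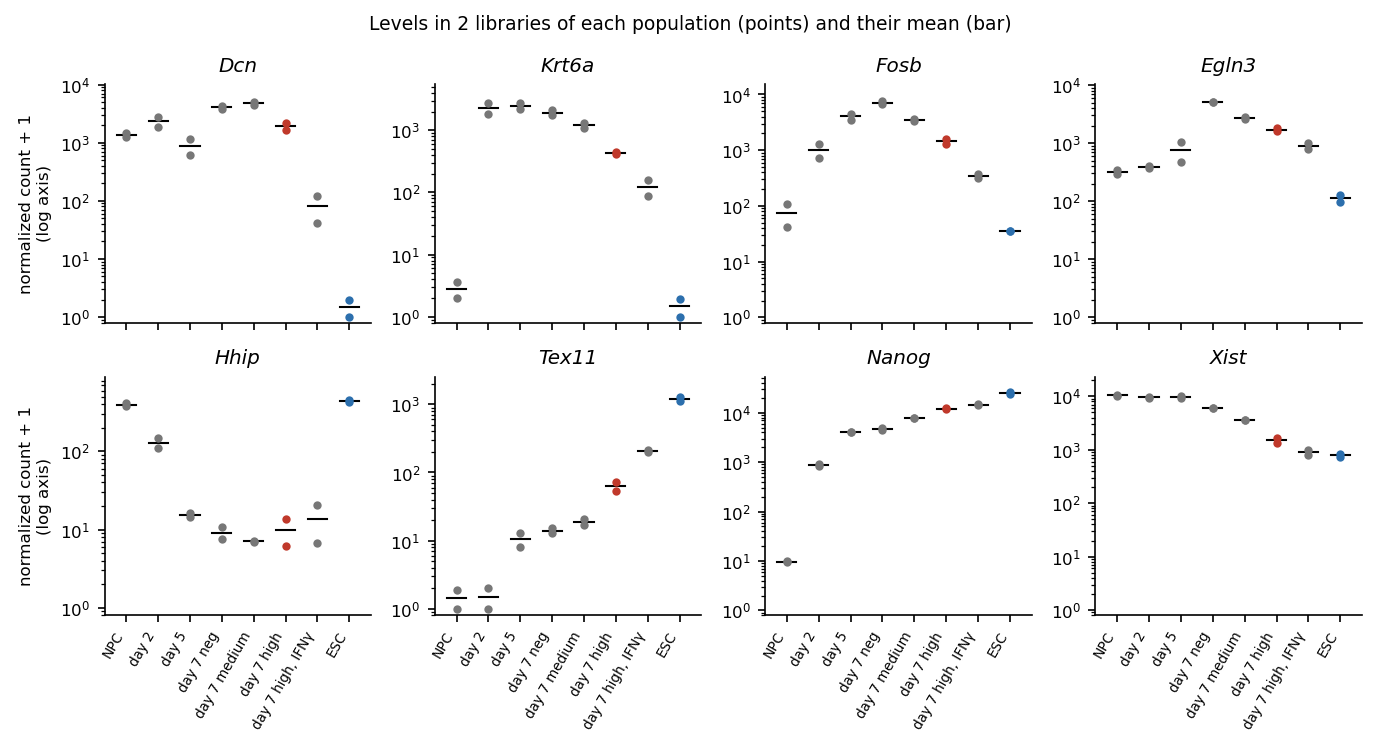
Normalized count + 1 (log axis) of 8 genes in NPCs, control cells of day 2, day 5 and day 7 sorted by X-GFP (negative, medium, high), IFNγ-treated X-GFP–high cells and ESCs. Points are 2 libraries and bars their mean; red marks control X-GFP–high cells and blue ESCs, and from X-GFP–negative over medium to high cells of day 7 the means of Krt6a and Fosb go down and that of Nanog goes up, whereas Hhip stays far under the ESC level in all 3.

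Decreases behaved less evenly. Hhip had 5.93 and 6.20 normalized counts in X-GFP–medium and 5.71 and 19.6 in IFNγ-treated X-GFP–high cells, far from the 448 and 433 of ESCs. Tex11 had 15.8 and 19.6 in X-GFP–medium cells and 211 and 196 in IFNγ-treated X-GFP–high cells, the latter above both control X-GFP–high libraries and below ESCs. Cyp1a1 stayed at a mean of 1.53 in X-GFP–medium and 1.16 in IFNγ-treated X-GFP–high cells. Of the 7 largest decreases with a mean above 10 in the comparison of the 2 X-GFP–high arms, 4 were higher with IFNγ at an adjusted p under 0.1, a direction that their choice for low values in the control libraries favors. Without the first control X-GFP–high library 2 of 8 were, and without the second 5 of 8. For Otx2, the means were 3258 in X-GFP–medium, 3632 in control X-GFP–high and 3681 in IFNγ-treated X-GFP–high cells, all far above ESCs.

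X-linked genes were below the ESC level more often than the genes of any autosome. Of 627 X-linked genes tested, 377 (60.1%) were lower and 107 (17.1%) higher in X-GFP–high cells, whereas on single autosomes 33.4% to 43.0% of genes were lower and 33.7% to 44.7% higher. The median log2 difference was -0.41 on the X chromosome and 0.02 over the autosomes, and single autosomes had medians of -0.05 to 0.12. Over the 4 pairs of an X-GFP–high and an ESC library, the X median minus the autosomal one ran from -0.47 to -0.43. A fall by at least 1 was seen in 25.0% of X-linked genes, against 4.74% to 9.63% on single autosomes. The same held for 215 X-linked genes with a mean above 1000 normalized counts, of which 163 were lower with a median of -0.45, when 2518 of 5165 autosomal genes of that level were lower with a median of -0.10. Members of 1 chromosome share its state and are no replicates.

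**Figure D4:**
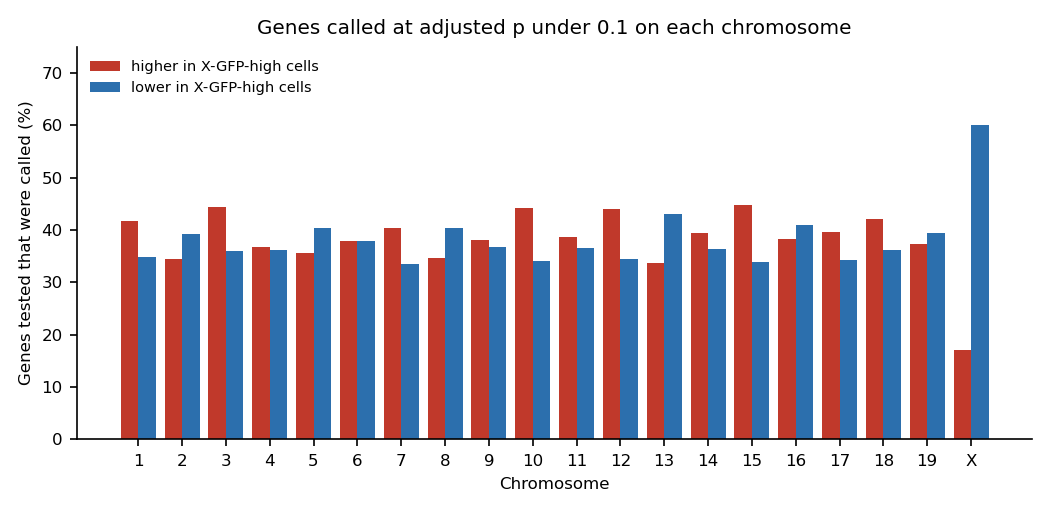
Percent of tested genes on each chromosome that were called higher (red) or lower (blue) in control X-GFP–high cells than in ESCs at an adjusted p under 0.1. The X chromosome has the highest blue bar, 60.1%, and the lowest red bar, 17.1%.

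Xist had 1652 and 1357 normalized counts in the X-GFP–high libraries and 742 and 841 in the ESC libraries, a log2 difference of 0.92 ± 0.09 (adjusted p = 9.52e-07). Xist (ENSMUSG00000086503, chromosome X from 103460366 to 103483254), the RNA that coats and silences the X, was higher in both X-GFP–high libraries than in ESCs, and much lower than in NPCs, which had a mean of 10412. Tsix stood at 473 and 564 normalized counts in X-GFP–high cells and at 825 and 751 in ESCs, a log2 difference of -0.61 ± 0.10 (adjusted p = 8.42e-05). Tsix, the antisense transcript of Xist, was lower without overlap, and since both overlap on opposite strands, the limit given for Rtl1 holds for their reads too. Klhl13 gave 29849 and 31106 normalized counts in ESCs and 9532 and 9585 in X-GFP–high cells, a log2 difference of -1.67 ± 0.05 (adjusted p = 5.83e-12). Klhl13, an adaptor of a ubiquitin ligase, was farthest below ESCs in the list of the X-inactivation center and related X-linked genes (15 of 27 lower, 6 higher, median -0.27), followed by Zfp185 (-1.44 ± 0.08, adjusted p = 3.02e-09). Hprt, which hosts the reporter and was singled out after its values were seen, had 1097 and 1139 normalized counts against 1157 and 1054 in ESCs, a log2 difference of 0.02 ± 0.07 (adjusted p = 0.841), and was not called.

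The share of reads from X mus was deposited as 1 value per gene and population for 316 X-linked genes, so that it carries no replicate error and no test, and the depth behind each value is unknown. The median proportion over genes was 0.336 in control X-GFP–high cells, 0.481 in ESCs, 0.110 in X-GFP–medium cells, 0.396 in IFNγ-treated X-GFP–high cells and 0.001 in NPCs. In 293 of 316 genes the proportion in X-GFP–high cells was below that in ESCs, in 87 by over 0.2, and in 48 it lay within 0.05. A proportion between 0.4 and 0.6 was listed for 82 genes in X-GFP–high cells and for 231 in ESCs. Below 0.1 were 20 genes in X-GFP–high cells and 3 in ESCs.

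**Figure D5:**
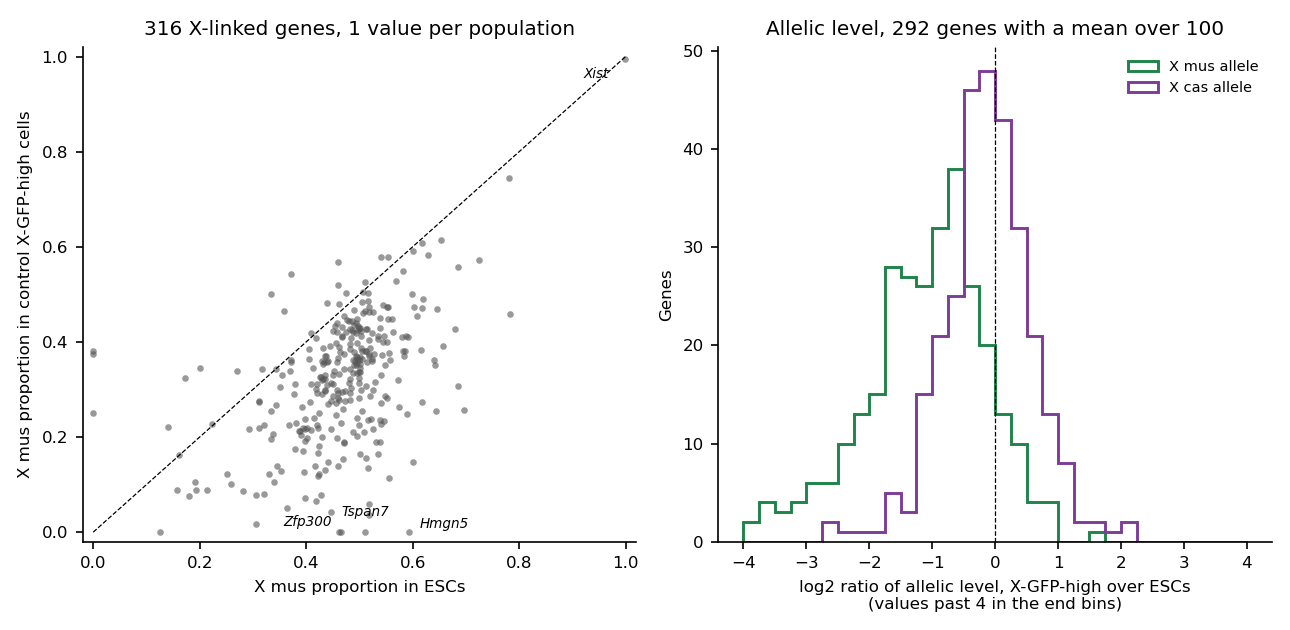
Left, X mus proportion of 316 X-linked genes in ESCs (horizontal) and control X-GFP–high cells (vertical), 1 value per population, with a dashed line of equality above which 23 genes lie. Right, number of genes by log2 ratio (X-GFP–high over ESC) of the level assigned to each allele plus 1, for 292 genes with a mean above 100 normalized counts, with a median of -0.99 for X mus (green) and -0.13 for X cas (purple).

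Zfp300 (0 in X-GFP–high cells, 0.462 in ESCs), Hmgn5 (0.594 in ESCs), Zcchc18 (0.510 in ESCs) and Dnase1l1 (0.466 in ESCs) were the 4 genes listed at 0 in X-GFP–high cells with a proportion over 0.4 in ESCs, and were named for that count. A listed 0 can rest on few reads. Tspan7, chosen after its value was seen, had 0.0423 in control and 0.284 in IFNγ-treated X-GFP–high cells and 0.446 in ESCs. Klhl13 had 0.122 against 0.251, Dusp9 0.336 against 0.500, and Hprt 0.362 against 0.557. Xist was read almost wholly from X mus, at 0.995 and 0.999.

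The proportion was multiplied with the mean normalized count to give a level for each allele, and 1 was added before logs were taken. Over 292 genes with a mean above 100, the median log2 ratio of X-GFP–high to ESC was -0.99 for the X mus level and -0.13 for the X cas level, with -0.42 for both alleles together. The X mus level was lower in 260 genes, and the X cas level lower in 168 and higher in 124. Genes were also ordered by their proportion in X-GFP–high cells into 4 equal groups of 73. The lowest group, up to 0.240, had a median total difference of -0.56 with 56 genes called lower, and the highest, from 0.412, a median of -0.34 with 47 called lower. Lower totals were therefore seen also among the genes with the highest X mus proportions. The level of Klhl13 was 1171 from X mus and 8388 from X cas in X-GFP–high cells, against 7661 and 22817 in ESCs, so that both alleles were lower. The same was seen for Dusp9, with 391 and 773 against 1191 and 1190.2.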

How the data were processed

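RNA was sequenced by the authors from TruSeq stranded, ribosomal RNA–depleted paired-end libraries cut to 50 bp, aligned with STAR to mm10 with SNPs of both parental strains masked, counted with HTSeq 0.6.1 and divided by DESeq2 size factors. The deposited table holds these normalized counts (a signal, not whole numbers) for 37315 genes in 24 libraries, and 95.2% of identifiers were matched to GENCODE symbols. The deposited X mus proportions are fractions of reads with a SNP, 1 value per gene and population.

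Values were tested with limma 3.58.1 in R 4.3.3 (trended, two-sided) on log2(normalized count + 1), for genes with a mean above 10 in the 4 libraries of a fit, with Benjamini-Hochberg adjustment and a threshold of 0.1, after the filter and threshold of the study. Added counts shrink the fold of low genes. In the X-GFP–high and ESC libraries 100% of values were whole multiples of 1 step per library within 0.01 read, which gave back whole reads for DESeq2 1.42.0 and edgeR 4.0.16 as other settings. Totals were 26982896 to 30359554 reads. Ratios of reads carry 95% exact binomial intervals, and these and the floor of 3 reads per library cover counting error only. An exact permutation test of 2 against 2 libraries cannot go below p = 0.33. Libraries of a group differed by more than counting noise (chi-square per degree of freedom of 4.39 and 5.02), so none was a copy. Scripts were tested on simulated data with 200 changed genes, far fewer than were called in the real libraries. At the threshold of 0.1, 12.7% of the limma calls there were false, against 12.3% for edgeR and 1.02% for DESeq2.

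Named were the 12 largest increases and 12 largest decreases among called protein-coding genes whose mean reached 100 in either group and whose groups did not overlap (Gm and Rik symbols left out), members of 25 lists past the threshold with a difference of at least 1, markers, cassette genes, Xist and Tsix. Some genes that met this rule are not reported here. The comparison, members and lists were chosen with earlier results of these data known. Promoters are RefSeq's, on GRCm38.p6, and were searched on both strands for the E-box CACGTG, its inner core ACGTG, the ATF letters TGATGNAA and the AP-1 letters TGANTCA, the last left out for too few promoters in its list. Other settings were another pseudocount, no filter, rescaling to nuclear genes, all 24 libraries, the replicate number as a block, DESeq2, edgeR, and each library left out.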

Additional observations from a re-analysis of the deposited data

Results flagged for a closer look

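Levels of named genes in the IFNγ-treated arm were set beside those in control X-GFP–high cells. All 12 of the largest increases were lower, and so nearer to the ESC level, in the IFNγ-treated cells at an adjusted p under 0.1 (limma). Of the 7 largest decreases tested there, 4 were nearer to the ESC level, and 2 of 8 were without the first control library. The genes were picked for high or low values in the same control libraries, and 11 of the 12 increases passed the filter only through them. That choice favors treated values nearer to ESCs, so these counts do not show a difference between the arms.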

How the results depend on the processing

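Of 122 recomputed counts and medians that answer a comparison, 115 kept their direction and size, and of 3781 other values, for lists and single genes, 3712 did. Without a filter on low values 3931 genes were higher by at least 1 and the X median minus the autosomal median was -0.35, over more and lower genes. Leaving out 1 library each gave 2377 to 2723 genes higher by at least 1, X minus autosomal medians of -0.46 to -0.42, and 967 to 3187 genes higher and 1774 to 3657 lower in IFNγ-treated against control X-GFP–high cells. Rescaled to the same nuclear total, the medians of the DNA methylation genes (0.0157) and of the Polycomb genes (0.0742) changed sign, as did that of the two-cell-like genes without an ESC library (0.55 and 0.25, and -0.20 to 0.55 over all 4 libraries left out). The cause was not tested. DESeq2 on whole reads called 5033 genes higher and 5156 lower, and edgeR 5908 and 5811. Of 274 named genes none reversed and 8 lost the call under a setting, namely Pou5f1, Zfp42, Sall4 and Dppa5a in the fit of 24 libraries, and Zscan4d, Zim1, Msx1 and Tgfb2, all low. With the replicate number as a block, 5824 genes were higher and 5817 lower (374 of the X-linked genes lower), 5245 and 5403 against X-GFP–medium cells (4871 and 5068 without it), and 3171 and 3423 with IFNγ. No label says what a shared number marks. Deviations of same-numbered libraries correlated at 0.00979 between X-GFP–high cells and ESCs over 15427 genes, 0.109 against medium cells (0.287 over the 10881 genes above 100 counts) and 0.0212 with IFNγ. Under the pairing no count that answers a comparison moved by over 1.5 times. Promoter features of all tested genes and of genes called higher were not used, as fewer than 80% had a promoter (79.6% and 78.5%), and for those sets the check is void. With 2 libraries per group, spread is known poorly, and under about 10 counts differences rest on few reads.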

Other observations

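Of the 13 mitochondrially encoded mRNAs, mt-Nd3, mt-Nd4l, mt-Co2, mt-Co3, mt-Atp6 and mt-Atp8 were listed at 0 or at most 1.03 normalized counts in all 4 libraries, while mt-Co1 had 153323 and 164195 in X-GFP–high cells and 125980 and 121418 in ESCs, so that the level of these 6 genes cannot be read from the table.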
